A study of Mus musculus with 8 samples.

Results

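The 10 genes Hspd1, Hspe1, Hspa9, Dnaja3, Trap1, Lonp1, Clpp, Clpx, Afg3l2 and Spg7, which encode chaperones and ATP-dependent proteases of mitochondria, were compared between activated muscle stem cells (ASCs) of wild-type and of mfn2-/- mice. They were chosen by name, and all 10 were found among the 18877 gene symbols of the deposited table. Muscle stem cells are the Pax7-expressing cells that rebuild skeletal muscle after injury, and Mfn2 encodes mitofusin 2, a fusion protein of the mitochondrial outer membrane. Mice of both groups carried a Pax7-Cre(ERT2) driver and a mito-Dendra2 allele, a fluorescent protein placed in mitochondria once Cre is active. In the mfn2-/- mice the same driver also deleted a conditional Mfn2 allele, so that the deletion takes place where Pax7 drives Cre and not in the rest of the muscle. All mice received tamoxifen at 75 mg/kg on 5 days, and 2 days after the last dose 50 uL of 1.2% BaCl2 was injected into the tibialis anterior muscle. Living Dendra2+ CD34- cells were sorted 2 days after that injury, and their total RNA gave 4 libraries per group. The ages of the mice and whether animals were pooled are not given in the sources used here, so that p-values measure the spread between these libraries.

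Most mitochondrial proteins are made in the cytosol and enter the organelle as unfolded chains. In the matrix, the Hsp70 protein encoded by Hspa9 pulls chains in and binds them with the help of J-domain partners such as Dnaja3, the Hsp60 chamber of Hspd1 with its Hsp10 lid from Hspe1 encloses chains while they fold, and Trap1 is the Hsp90 of the organelle. Damaged chains are degraded by Lonp1, by the ClpXP complex, in which Clpx unfolds and Clpp cuts, and by the m-AAA protease of the inner membrane, built from Afg3l2 and Spg7. Chaperone and protease genes of this kind are the classical readout of the mitochondrial unfolded protein response, in which protein stress inside the organelle is answered by transcription in the nucleus, and Hspd1 and Hspe1 are also known targets of heat shock factor.

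Hspd1 and Hspe1 lie head to head. In the GENCODE M21 annotation of GRCm38, Hspd1 spans chromosome 1, 55077835 to 55088243, on the minus strand, and Hspe1 spans 55088132 to 55091307 on the plus strand, so that their first exons overlap. RefSeq gives Hspe1 a start at 55088148 and Hspd1 starts at 55087932 and 55088243. The windows of 250 bases before to 50 bases after the Hspe1 start and the first of these Hspd1 starts, which are 216 bases apart, share 285 bases. The window of the other Hspd1 start shares 4 bases with that of Hspe1. The bases around the heat shock element matches are shown because the same letters lie in a window of both genes. They come from the RefSeq window of Hspe1 (GRCm38.p6, chr1:55088053-55088082, plus strand), with matches to GAANNTTC and TTCNNGAA in capitals.
Hspe1 and Hspd1, shared upstream stretch: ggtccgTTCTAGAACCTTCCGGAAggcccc
The stretch held 1 match to GAANNTTC and 2 to TTCNNGAA, motifs that read the same on both strands. The GAANNTTC match overlaps both TTCNNGAA matches, which do not overlap each other. For Hspd1 the stretch lies upstream of the start at 55087932 alone. It lies downstream of the start at 55088243, within the GENCODE span of Hspd1. The window of the Hspd1 start at 55088243 held 0 matches to either motif. Of the 32851 windows of all genes, 15.1% held a match to either motif, and 84 windows (0.256%) held 3 or more. Of the other members with a window, Clpp had 1 match, and Lonp1, Clpx, Dnaja3, Trap1 and Spg7 had 0.

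The Lonp1 upstream stretch is shown beside it because Lonp1 is a known target of hypoxia-inducible factor and Hif1a differed between these groups. Lonp1 spans chromosome 17, 56614297 to 56626887, on the minus strand, and the bases before its RefSeq start (GRCm38.p6, chr17:56626904-56627153, minus strand) are printed with matches to the hypoxia response cores ACGTG and GCGTG, on either strand, in capitals.
Lonp1, upstream stretch: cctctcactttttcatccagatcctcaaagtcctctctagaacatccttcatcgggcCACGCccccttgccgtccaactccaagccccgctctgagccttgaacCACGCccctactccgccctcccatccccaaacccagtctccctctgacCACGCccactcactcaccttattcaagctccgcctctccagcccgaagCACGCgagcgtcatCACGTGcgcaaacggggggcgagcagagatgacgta
The Lonp1 window held 2 matches to ACGTG, which are the opposite strands of 1 site, and 4 to GCGTG. Either core occurred in 43.8% of all windows, and at least 1 of them in all 9 windows of the members, so that such matches are not particular to Lonp1. The Clpx window held 1 match to ACGTG and 4 to GCGTG. The amino acid response element TGATGNAA, which ATF4 and its partners bind, was found in 0 of the 9 windows of 8 members, and in 3.97% of all windows. The core ATTGCA of CCAAT/enhancer-binding proteins had 1 match each in the Hspe1 window and the Hspd1 window that overlaps it. The other windows of the members had 0, and 8.4% of all windows held it. The oestrogen-related receptor site AAGGTCA had 1 match in the same Hspe1 and Hspd1 windows and 1 in that of Trap1. It was found in 4.72% of all windows. A match is a description of these letters and does not show binding.

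Reads assigned to genes ranged from 1880464 to 7508215 per library. The values below are normalized read counts, which are reads divided by 1 factor per library, and 1 read was worth 0.534 to 2.27 of them. Changes are differences of log2(value + 1), mfn2-/- minus wild-type, with adjusted p from limma over the 11754 genes whose mean reached 10, and a gene was called when that p was under 0.05. The transcript of the targeted gene, Mfn2, measured 229 ± 19.98 in wild-type and 126 ± 31.4 in mfn2-/- libraries (SD, n = 4), without overlap, at a log2 change of -0.88 (limma adjusted p 0.0848). Hif1a rose by 1.85 on this scale. Reads from Y-linked genes were present in replicates 3 and 4 of wild-type and in replicates 1 and 2 of mfn2-/-, and the other 4 libraries held 0, so each group had 2 libraries of each kind. Within a group, each kind is also a pair of replicate numbers, and these cannot be told apart. The kind without Y-linked reads held the shallowest library of each group, wild-type replicate 1 and mfn2-/- replicate 4, and mfn2-/- replicate 4 also stood apart in the share of its signal in the small RNA gene Rn7sk (6.03%, against 0.365% to 1.54% in the others). The ribosomal RNA genes listed as Rnr2 and Rnr1 moved with the genotype, with 3.42% to 5.79% and 0.197% to 0.238% of the wild-type signal against 1.42% to 2.31% and 0.0542% to 0.0899% of the mfn2-/- signal (exact permutation p = 0.0286 for each, n = 4 per group), and their part in the results below was not tested.

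Some markers of the sorted cells and of other cells moved with the genotype. The summed level of 10 myogenic stem and progenitor markers was 8409 to 13654 in wild-type and 26907 to 41330 in mfn2-/- libraries. Of the 10, 4 were called higher, where 3.99% of all genes tested were, and 0 were at 0 in a whole group. Much of this sum is Sdc4, at 4271 ± 1529 in wild-type and 17473 ± 3953 in mfn2-/- libraries (SD, n = 4). A typical marker of the list moved less, with a median of 0.27 on the log2 scale beside -0.16 for all genes tested. Of the 10 changes 8 lay above 0 and 2 below, the lowest at -0.87. The 10 fibroadipogenic markers summed to 4.58% to 6.24% of the wild-type signal and 0.128% to 0.237% of the mfn2-/- signal, with 8 of 10 called lower. Of their 10 changes 9 lay below 0 and 1 above, at 2.08 and not called. All 10 tenocyte markers were called lower (sums of 40809 to 65595 against 306 to 435). Endothelial and macrophage markers had 0 of 7 and 0 of 4 tested genes called, with sums of 851 to 1330 against 1013 to 1593 and of 33.5 to 123 against 75.3 to 145. The macrophage marker Emr1 was at 0 in every wild-type library and C1qb in every mfn2-/- library. Of the neutrophil and lymphocyte lists 0 genes reached the level needed for a test, and their sums stayed at or under 28.0 and 34.8. S100a9, Mpo, Cd3e, Cd3g and Cd79a were at 0 in every wild-type library and Ly6g in every mfn2-/- library. Of the 2 erythroid markers 0 were called (34.2 to 66.1 against 0 to 28.4), of the mural list 1 gene was called higher and 2 lower (2188 to 3377 against 1286 to 1702), of the Schwann list 1 lower (302 to 701 against 218 to 459), and of the myofiber list 0 (860 to 2569 against 1776 to 3113). In bulk RNA, more cells of a type and more RNA per cell cannot be told apart, and the part of these markers in the results below was not tested. When the libraries were scaled to equal totals with the fibroadipogenic and tenocyte markers left out of the totals, a setting chosen after seeing the data, the log2 changes of Hspd1, Hspe1 and Hspa9 were 0.70, 1.02 and 0.78, with limma adjusted p of 0.0543, 0.0164 and 0.0187.

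The chaperone genes Hspe1 and Hspa9 rose in mfn2-/- ASCs, Hspd1 was higher in all 4 mfn2-/- libraries without passing the test over all genes, and 0 of the 7 others passed, the chaperone genes Dnaja3 and Trap1 among them. Thus 2 of 10 members were called, both higher, where 10.4% of all genes tested were called (1217, with 38.5% of them higher), 3.99% as higher and 6.36% as lower. The median change of the 10 members was -0.04, beside -0.16 over all genes, and 5 members had a positive and 5 a negative sign. The summed level of the members was 5105 to 7053 in wild-type and 8629 to 10860 in mfn2-/- libraries, a sum that Hspd1, Hspe1 and Hspa9 make up for the most part. With upper-quartile scaling, which left 21.4% of 716 called genes on the higher side, and without the intensity trend of limma (17.9% of 633), 0 members were called.

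**Figure D1:**
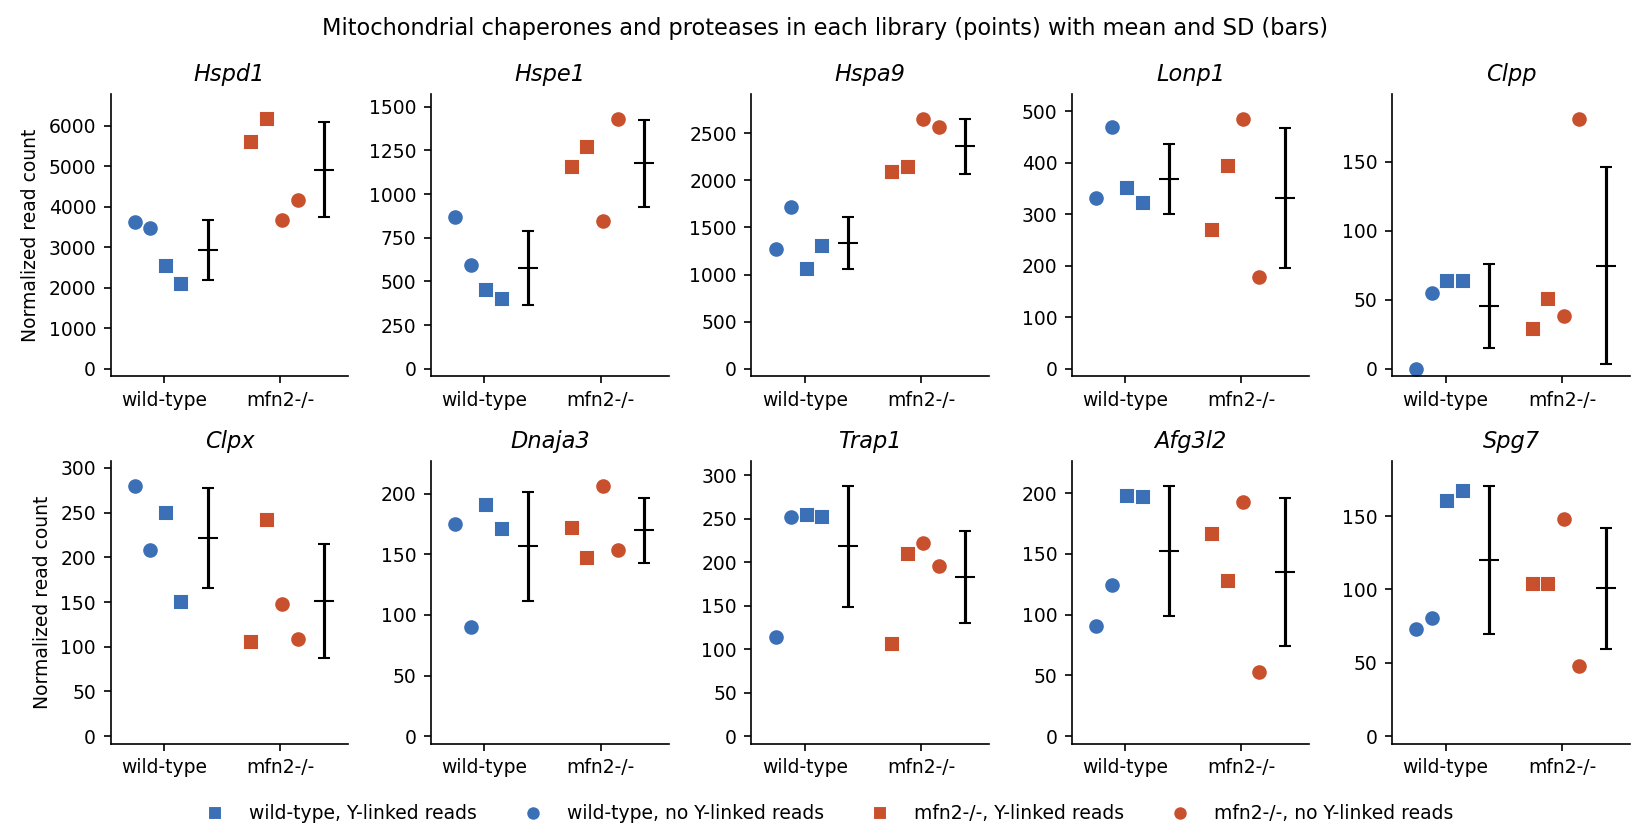
Normalized read count (y axis, from 0) of each of the 10 genes in the 4 wild-type (blue) and 4 mfn2-/- (red) libraries, in replicate order from left to right, with squares for libraries with Y-linked reads, circles for those without, and black bars for the mean and SD. The groups are apart for Hspd1 and Hspa9, nearly so for Hspe1, and they overlap for the 7 other genes.

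Hspa9 encodes the matrix Hsp70, which drives protein import and the first steps of folding. It measured 1269, 1715, 1062 and 1304 in wild-type replicates 1 to 4, and 2086, 2137, 2657 and 2562 in mfn2-/- replicates 1 to 4. Every mfn2-/- library lay above every wild-type library. The means were 1337 ± 274 and 2361 ± 291 (SD, n = 4), a 1.76-fold difference, with a log2 change of 0.83 (SE 0.19, 95% interval 0.42 to 1.24, limma adjusted p 0.0139). The two-sided exact permutation test over the 70 arrangements of the libraries gave p = 0.0286, the smallest it can give here, and 2 of the 10 members had no overlap, against 19.5% of all genes tested (7.36% higher and 12.2% lower). The change was alike in the libraries with Y-linked reads (0.84) and without (0.82). Leaving out wild-type replicate 3 took its adjusted p to 0.0568. Hspa9 lies on chromosome 18, and its exons have 1 annotated pseudogene copy with at least 90% identity.

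Hspe1 encodes Hsp10, the lid of the Hsp60 chamber. The wild-type libraries gave 871, 592, 448 and 397, and the mfn2-/- libraries 1157, 1268, 847 and 1433. The highest wild-type library, replicate 1, lay just above the lowest mfn2-/- library, replicate 3. The means were 577 ± 213 and 1176 ± 247 (SD, n = 4), a 2.04-fold difference, with a log2 change of 1.07 (SE 0.26, 95% interval 0.51 to 1.63, limma adjusted p 0.0199), while the exact permutation test gave p = 0.0571. Hspe1 had the second largest change of the members after Clpp, whose change rests on 2 libraries, and it stood at the percentile 89.3 of all genes tested. Leaving out wild-type replicate 3 or 4, or mfn2-/- replicate 2, took the adjusted p to 0.0660, 0.0638 and 0.0569.

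Hspd1 encodes Hsp60 itself and was the most abundant of the 10. It measured 3618, 3465, 2549 and 2082 in wild-type and 5611, 6181, 3685 and 4174 in mfn2-/- libraries. The groups did not overlap, but wild-type replicate 1 and mfn2-/- replicate 3 were nearly level. The means were 2929 ± 736 and 4913 ± 1176 (SD, n = 4), a 1.68-fold difference. The log2 change was 0.75 (SE 0.23, 95% interval 0.25 to 1.25), with p = 0.0286 by the exact permutation test and a limma adjusted p of 0.0586, above the threshold. Of 24 alternative settings, 10 took Hspd1 past the threshold and 14 did not, with the direction kept in all 24 and the change between 0.60 and 1.18.

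Sequence copies limit these 3 values. Of annotated pseudogenes, 5 match the exons of Hspd1 over at least 200 bases with at least 90% identity, the closest at 98.955%, and 3 match Hspe1. Hspe1 also matches the protein-coding gene AC117239.2 at these limits. How reads shared with such copies were counted is not given in the sources used here. None of the pseudogene copies had a symbol of its own among those analysed, and AC117239.2 was not looked up there. These levels are thus uncertain by the reads that copies take or add. The overlap of the first exons of Hspd1 and Hspe1 adds to this, since the strand setting of the counting is not given either.

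**Figure D2:**
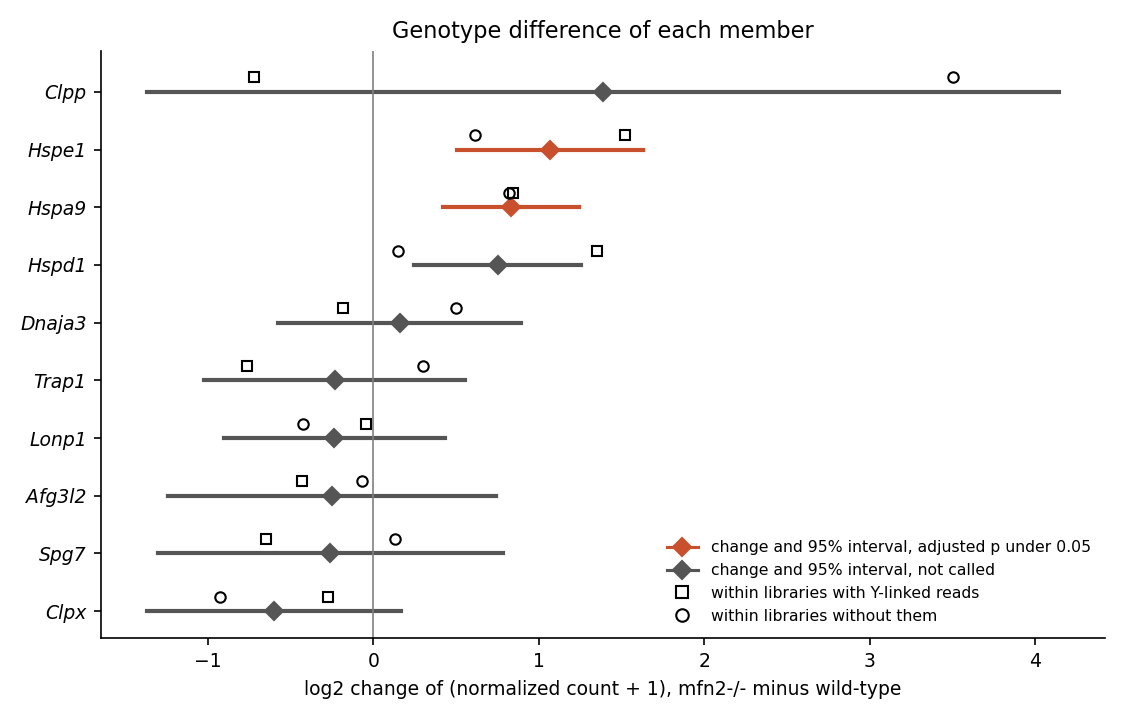
Log2 change of each gene (x axis, mfn2-/- minus wild-type, normalized count + 1), with diamonds and lines for the change and its 95% interval over all 8 libraries, red where the limma adjusted p was under 0.05. Open squares and circles give the change within the 2 against 2 libraries with and without Y-linked reads, which are far apart for Hspd1 (1.35 and 0.15) and almost at the same place for Hspa9 (0.84 and 0.82).

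The size of the Hspd1 difference depended on the kind of library. Among libraries with Y-linked reads Hspd1 averaged 2316 for wild-type and 5896 for mfn2-/-, a 2.55-fold difference, and among those without it averaged 3542 and 3929, a 1.11-fold difference. The log2 changes were 1.35 and 0.15, and the genotype-by-kind interaction was 1.21 (SE 0.20, limma adjusted p 0.0165 over all genes), where 1.47% of all genes had a called interaction. The wild-type libraries without Y-linked reads were above the wild-type libraries with them, and the mfn2-/- libraries were in the opposite order. With quantile normalization the interaction was 0.84 with an adjusted p of 0.108, above the threshold.

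Hspe1 was 2.87-fold higher in mfn2-/- ASCs with Y-linked reads (423 against 1212) and 1.56-fold higher without (732 against 1140). Its interaction of 0.90 had a limma adjusted p of 0.398. For Hspa9 the folds were 1.79 and 1.75, with an interaction of 0.02. The interaction was called for Hspd1 and for none of the 9 other members.

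Of the 17 cytosolic and endoplasmic reticulum relatives of these chaperones, 6 had a called interaction of the same sign. Hspa8, the constitutive cytosolic Hsp70, measured 53354 and 56150 in wild-type and 54135 and 55629 in mfn2-/- libraries without Y-linked reads, and 37621 and 35521 against 76353 and 79913 with them. Its interaction was 1.09 (limma adjusted p 0.00220). The cytosolic Hsp90 genes Hsp90aa1 and Hsp90ab1 had interactions of 1.33 and 1.23, the cytosolic J-domain genes Dnaja4 and Dnaja1 had 2.10 and 1.19, and Hspa5, the Hsp70 of the reticulum, had 0.74. Hsp90b1, the Hsp90 of the reticulum, had 0.07 (limma adjusted p 0.884). Among the relatives with a RefSeq window, heat shock element matches were found for Dnaja4 (up to 2 in a window) and Dnaja1 (up to 1), while Hspa5 had 0. Matches were likewise found for Cct2, Cct5 and Cct6a (up to 1 each), whose interactions were not called. Hspa8, Hsp90aa1 and Hsp90ab1 had no window, so their upstream letters were not examined. The shallowest library of each group was of the kind without Y-linked reads. The Rn7sk share was 1.54% and 6.03% in mfn2-/- libraries without Y-linked reads and 0.365% and 0.412% in those with them. In wild-type libraries it was 0.545% and 0.562% without and 0.838% and 0.515% with them. The part of depth and of the Rn7sk share in the interaction was not tested.

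**Figure D3:**
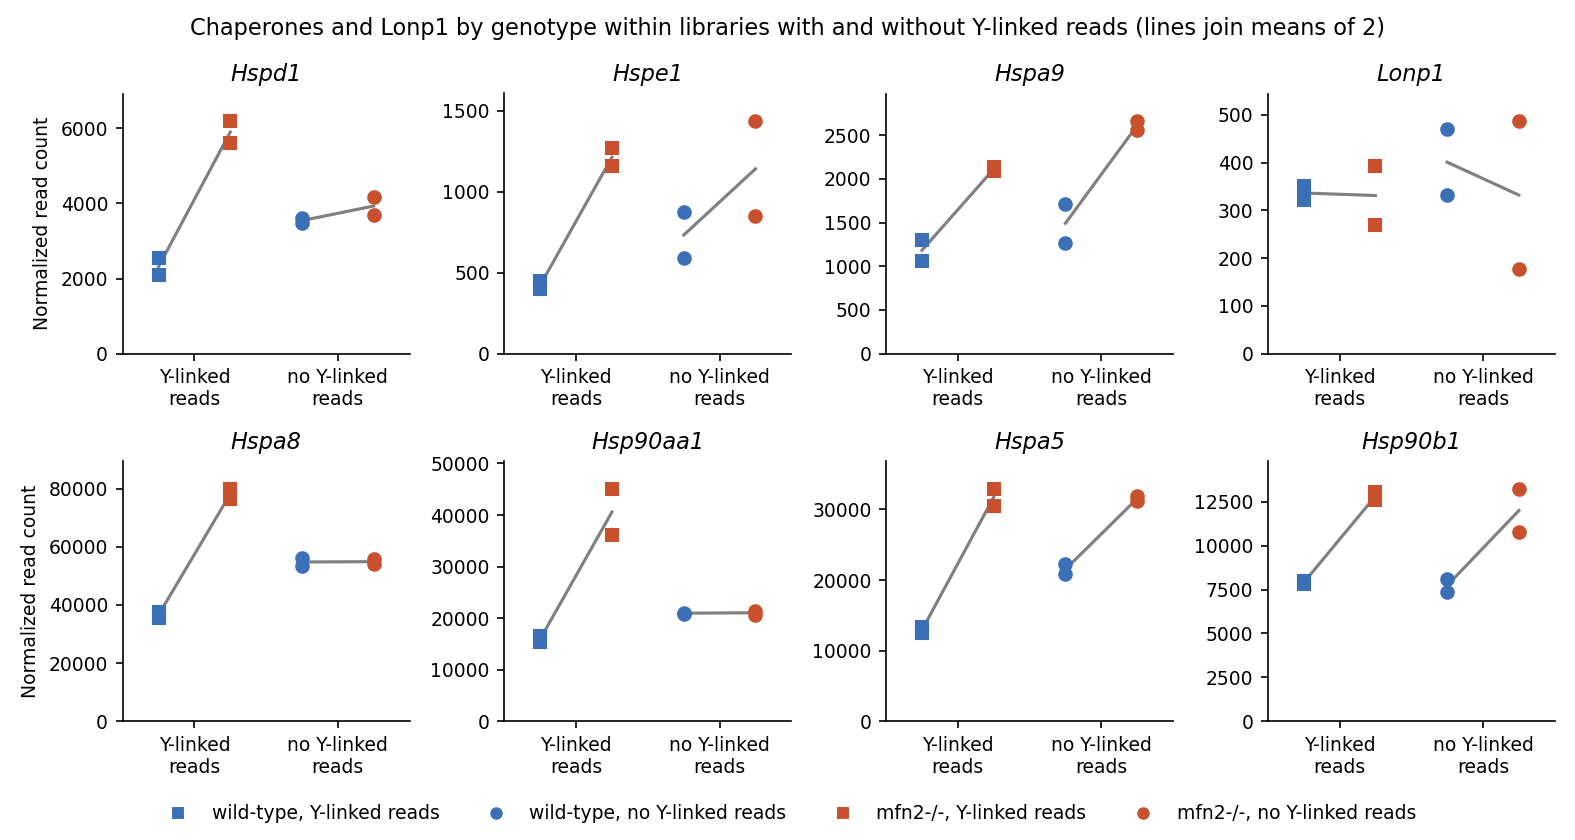
Normalized read counts (y axis, from 0) of 4 members and 4 cytosolic or reticulum chaperones by genotype (blue wild-type, red mfn2-/-), within the libraries with Y-linked reads (squares, left) and without (circles, right), with grey lines joining the means of 2 libraries. The line is steep on the left and almost flat on the right for Hspd1, Hspa8 and Hsp90aa1, and similar on both sides for Hspa9 and Hsp90b1.

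Dnaja3 encodes a J-domain partner that hands chains to the Hspa9 protein. It measured 175, 90.2, 190 and 171 in wild-type and 171, 147, 206 and 154 in mfn2-/- libraries. Wild-type replicate 2 was low, and the other 7 libraries lay close together. The log2 change was 0.16 (SE 0.34, 95% interval -0.57 to 0.89, limma adjusted p 0.814), so a difference of the size seen for Hspa9 lies within its interval.

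Trap1 encodes the mitochondrial Hsp90. Its wild-type values were 114, 252, 254 and 252, and its mfn2-/- values 105, 209, 222 and 196. In each group 3 libraries were close and 1 was low, wild-type replicate 1 and mfn2-/- replicate 1. The log2 change was -0.23 (SE 0.37, 95% interval -1.02 to 0.56, limma adjusted p 0.741), and without mfn2-/- replicate 1 it was 0.01.

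Of the matrix proteases, Lonp1 encodes the Lon protease, which degrades oxidized and misfolded matrix proteins. It measured 332, 470, 351 and 322 in wild-type and 269, 393, 486 and 178 in mfn2-/- libraries. The groups overlapped, and the mfn2-/- values reached both below and above the wild-type range, with means of 369 ± 68.5 and 332 ± 136 (SD, n = 4). The log2 change was -0.24 (SE 0.31, 95% interval -0.90 to 0.43, limma adjusted p 0.685). Its lowest value, 97 reads, came from mfn2-/- replicate 4, and without that library the change was 0.03.

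Clpx encodes the unfolding ring of ClpXP, and its exons too have 1 annotated pseudogene copy, at 97.436% identity over 312 bases, so that its level is uncertain in the same way. The wild-type libraries gave 280, 208, 249 and 150, and the mfn2-/- libraries 105, 242, 147 and 108. The values of 3 mfn2-/- libraries were below every wild-type value, replicate 3 by little, and mfn2-/- replicate 2 was among the wild-type values. The log2 change was -0.60 (SE 0.36, 95% interval -1.37 to 0.17, limma adjusted p 0.327), negative in all 24 alternatives and called in 0 of them.

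Clpp encodes the cutting chamber of ClpXP and was the member with the fewest reads, 0 to 119 per library. It measured 0, 55.0, 63.7 and 63.6 in wild-type and 28.7, 50.6, 38.3 and 181 in mfn2-/- libraries. The value of 0 came from the shallowest library, where 3 reads, the limit that a count of 0 allows, correspond to 6.82, and the value of 181 came from the other shallow library. The log2 change of 1.39 had an interval from -1.37 to 4.15 (SE 1.28, limma adjusted p 0.543). It was -0.72 in the libraries with Y-linked reads and 3.50 in the others, and it was -0.65 once wild-type replicate 1 and mfn2-/- replicate 4 were left out. No direction can be given for Clpp at this depth.

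Afg3l2 and Spg7 encode the subunits of the m-AAA protease, which clears and matures proteins of the inner membrane. Afg3l2, on chromosome 18, measured 91.0, 124, 198 and 197 in wild-type and 167, 128, 192 and 53.1 in mfn2-/- libraries. Spg7 measured 72.8, 80.9, 160 and 167 in wild-type and 104, 103, 148 and 47.6 in mfn2-/- libraries. Both were lowest in mfn2-/- replicate 4, and in wild-type both were lower in replicates 1 and 2 than in replicates 3 and 4. The log2 change of Afg3l2 was -0.25 (SE 0.46, 95% interval -1.24 to 0.74, limma adjusted p 0.781). The log2 change of Spg7 was -0.26 (SE 0.48, 95% interval -1.30 to 0.78, limma adjusted p 0.784). Without mfn2-/- replicate 4 the changes were 0.14 and 0.06.

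Ratios between partners were compared within each library, where the scaling of the library cancels. The log2 ratio of Hspe1 to Hspd1 was -2.37 ± 0.22 for wild-type and -2.06 ± 0.35 for mfn2-/- (SD, n = 4), a difference of 0.32 (exact permutation p = 0.171, 0.343 adjusted over the 4 ratios). The log2 ratio of Dnaja3 to Hspa9 was -3.12 ± 0.77 and -3.79 ± 0.20, a difference of -0.67 (exact permutation p = 0.143, adjusted 0.343). That of Spg7 to Afg3l2 was -0.37 ± 0.17 and -0.38 ± 0.22, a difference of -0.01 (exact permutation p = 0.971). The ratio of Clpx to Clpp differed by -1.99 (exact permutation p = 0.457, adjusted 0.610), which rests on the 2 Clpp values named above. The values of the groups overlapped for all 4 ratios, and 0 of them passed the test.

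Per kilobase of exon, Hspd1, Hspe1 and Hspa9 stood above the 7 other genes. Wild-type levels were 1209 ± 304 for Hspd1, 746 ± 275 for Hspe1 and 439 ± 89.7 normalized reads per kilobase for Hspa9 (SD, n = 4). Lonp1 followed at 125 ± 23.2, and the wild-type values of Hspa9 and Lonp1 did not overlap. Below it came Trap1 at 93.9, Clpx at 76.8, Dnaja3 at 59.2, Afg3l2 at 49.3, Clpp at 46.3 and Spg7 at 38.0 normalized reads per kilobase. In this order every other pair of neighbours overlapped, so that only the step from Hspa9 to Lonp1 was larger than the spread. In mfn2-/- ASCs the first 5 places were the same, with 2028, 1520 and 774 for Hspd1, Hspe1 and Hspa9 and 112 for Lonp1. The library preparation from total RNA and the unknown set of exons counted limit a comparison between genes.

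**Figure D4:**
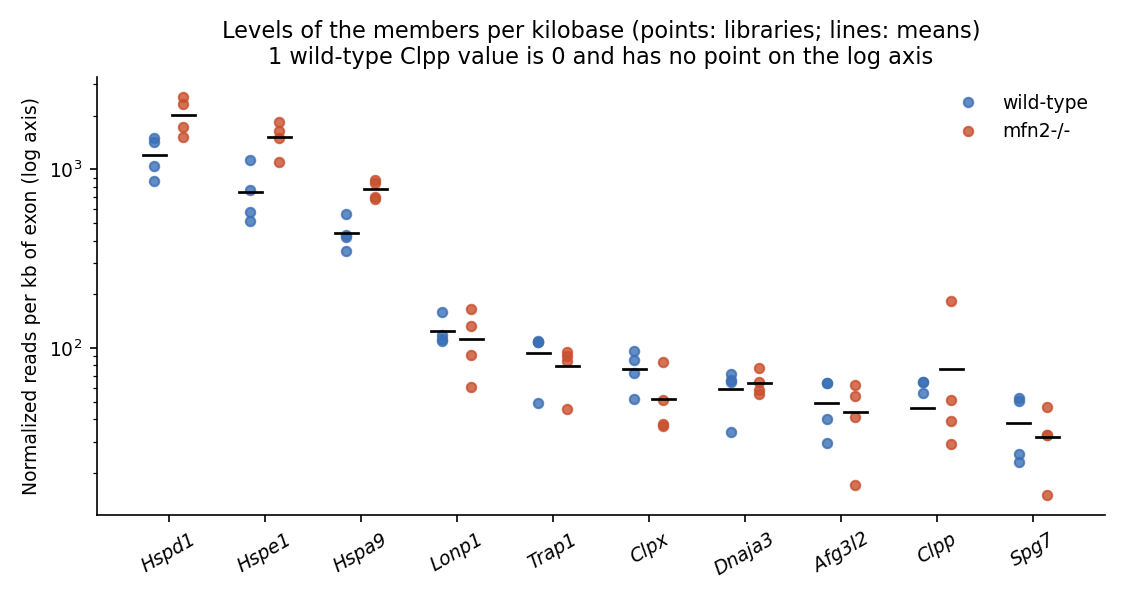
Normalized reads per kilobase of exon (log y axis) of the 10 genes, ordered by their wild-type mean, with 1 point per library (blue wild-type, red mfn2-/-) and black lines for the means. Hspd1, Hspe1 and Hspa9 lie above the 7 other genes in both groups, and the wild-type Clpp value of 0 has no point on the log axis.

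The spread between libraries was larger than counting error for each member. The SD was 12.3% (Hspa9, mfn2-/-) to 95.9% (Clpp, mfn2-/-) of the group mean, where counting error alone gives 1.40% to 13.7%. The reads behind a value ran from 1591 to 8415 for Hspd1, from 383 to 1735 for Hspe1 and from 558 to 3606 for Hspa9. For Afg3l2 and Spg7 they went down to 29 and 26 in mfn2-/- replicate 4. A rise as large as that of Hspa9 (0.83) lay inside the 95% intervals of Clpp and Dnaja3 and above those of Lonp1, Clpx, Trap1, Afg3l2 and Spg7.

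The genes around the members were read from 8 lists of 83 genes, of which 75 were tested and 5 called, all higher. For these counts and those of each list below, 10.4% of all genes tested were called, 3.99% as higher and 6.36% as lower. Among the co-chaperones and assembly factors of the Hsp70 and Hsp60 systems 0 of 5 tested genes were called, with a median change of -0.74. Clpb, a disaggregase of the intermembrane space, measured 135 ± 90.9 and 59.6 ± 48.1 (SD, n = 4), and Grpel1, the nucleotide exchange factor of the matrix Hsp70, 59.2 ± 25.0 and 96.8 ± 46.2. Among the other mitochondrial proteases 0 of 11 were called, with a median of 0.01. Pitrm1, which degrades cleaved targeting peptides, measured 434 ± 132 and 541 ± 190, and Yme1l1, the i-AAA protease, 424 ± 46.3 and 377 ± 98.4. Of the prohibitin scaffold, which surrounds the m-AAA protease, 0 of 3 were called, with a median of -0.33, and Phb2 and Phb measured 164 ± 54.2 and 100 ± 14.8 in wild-type against 127 ± 21.9 and 162 ± 117 in mfn2-/- ASCs.

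Of the preprotein translocases 1 of 14 was called, with a median change of -0.03 over the list. It was Timm44, which anchors the matrix Hsp70 to the import channel. Timm44 measured 93.2, 124, 121 and 99.9 in wild-type and 231, 256, 255 and 183 in mfn2-/- libraries, without overlap. Its means were 110 ± 15.4 and 231 ± 34.1 (SD, n = 4), and it rose by 1.07 on the log2 scale (SE 0.31, limma adjusted p 0.0413), by much the same amount in both kinds of library, with an interaction of 0.14. The other 13 translocase genes were not called. Of the 8 fits that each left out 1 library, Timm44 was called in the fit without mfn2-/- replicate 4 alone.

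Of 8 tested substrates of the matrix and inner membrane proteases 0 were called, with a median of 0.42. Opa1, the inner membrane fusion protein that mitochondrial proteases cut, measured 393 ± 92.7 in wild-type and 398 ± 67.4 in mfn2-/- libraries (SD, n = 4). Transcript levels do not measure the turnover of these proteins.

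Of the 6 transcription factors of the mitochondrial unfolded protein response 2 were called, and the list's median was 0.62. Atf4, the factor made when translation initiation is restrained under stress, measured 1528, 1349, 1212 and 1313 in wild-type and 3546, 3042, 2609 and 2298 in mfn2-/- libraries. It rose from 1351 ± 132 to 2874 ± 542 (log2 change 1.07, SE 0.18, limma adjusted p 0.00230). Cebpb, which encodes a bZIP factor that pairs with CHOP, rose from 1139 ± 282 to 2465 ± 225 (log2 change 1.14, SE 0.20, limma adjusted p 0.00267). Both remained called in each of the 8 fits without 1 library, but lost the call with upper-quartile scaling and without the intensity trend. Atf5, Ddit3 (which encodes CHOP), Hsf1 and Hsf2 were not called. Of 11 tested targets of the mitochondrial integrated stress response 0 were called, with a median of 0.30, and Ddit4 and Mthfd2, the most abundant of the list, measured 839 ± 184 and 119 ± 51.9 in wild-type against 646 ± 193 and 266 ± 138 in mfn2-/- ASCs.

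Of the 17 cytosolic and reticulum relatives 2 were called, with a median of 0.52. Hspa5 measured 20832, 22203, 12491 and 13354 in wild-type and 30541, 32910, 31915 and 31143 in mfn2-/- libraries, and rose by 0.92 (SE 0.26, limma adjusted p 0.0371). Hsp90b1 rose from 7818 ± 344 to 12422 ± 1131 (log2 change 0.66, SE 0.18, limma adjusted p 0.0356). Both encode chaperones of the endoplasmic reticulum. Of the fits that left out 1 library, Hspa5 was called in that without wild-type replicate 2 alone and Hsp90b1 in that without mfn2-/- replicate 3 alone. Of the 8 subunit genes of the cytosolic chaperonin TRiC, the relative of Hsp60, 0 were called. In this list 5 genes did not overlap between the groups, where 19.5% of all genes tested did not.

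**Figure D5:**
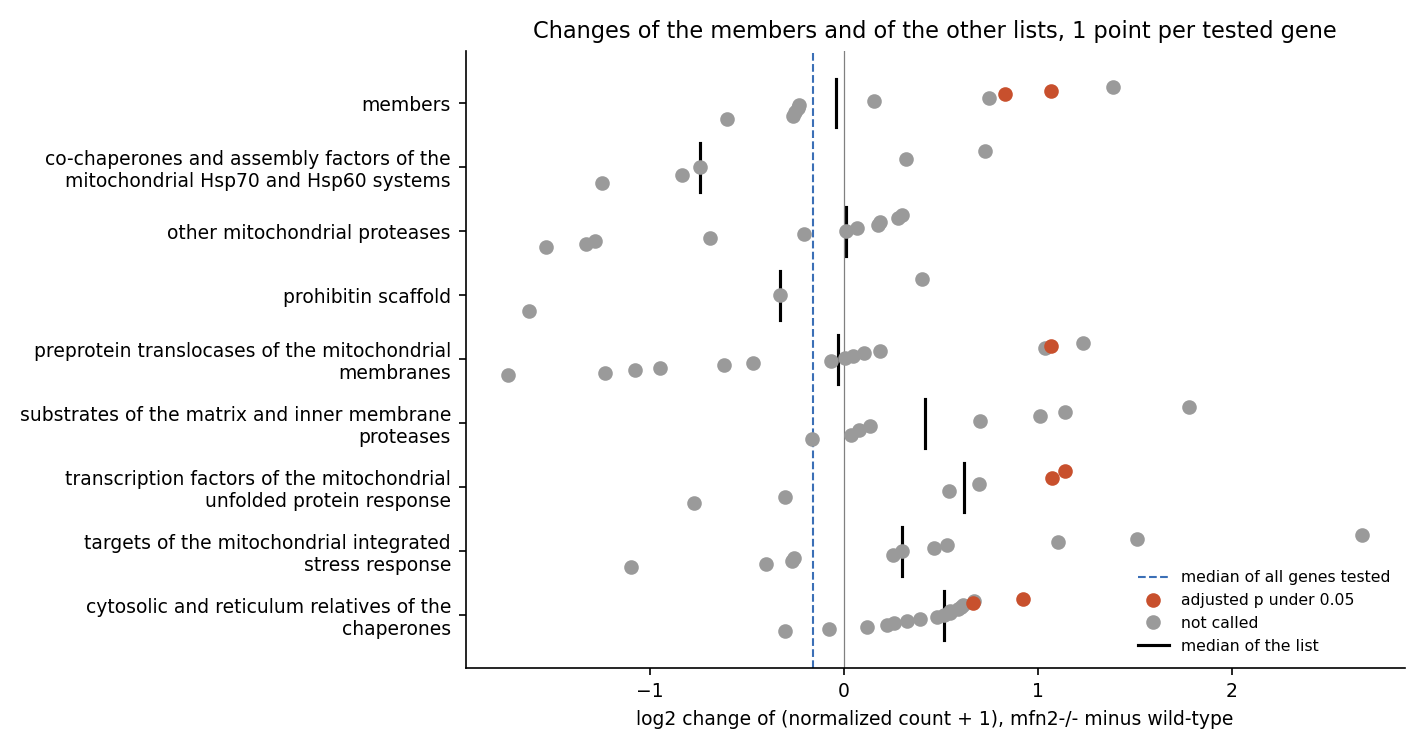
Log2 change (x axis, mfn2-/- minus wild-type, normalized count + 1) of each tested gene of the 10 members and of 8 other lists, 1 point per gene, red where the limma adjusted p was under 0.05, with black ticks for the median of each list and a dashed line for the median of all genes tested (-0.16). The called genes are 2 of the members, 1 translocase, 2 transcription factors and 2 reticulum chaperones, all on the right of 0.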

How the data were processed

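The authors prepared libraries from the RNA of sorted ASCs with a stranded low-input kit, and groups and replicate numbers were taken from the titles. The submitters' processing notes name Trim Galore, HISAT2, featureCounts, DESeq2 and mm9, and the gene annotation and the handling of strand and multi-mapped reads are not given in the sources used here. As deposited, each gene has a linear signal, its normalized read count, and in each of the 8 columns 100% of them were whole multiples of 1 step within 0.01, so the reads could be recovered. The table had 24 symbols turned into dates by a spreadsheet and 0 protein genes of the mitochondrial genome.

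The 10 genes and the other lists were chosen with earlier results of these data known. All list genes were read from 1 fit of limma 3.58.1 (R 4.3.3) on log2(value + 1) of genes with a mean of at least 10, with an intensity trend and without covariates, and two-sided p-values were adjusted over all of them by Benjamini-Hochberg (threshold 0.05). Interactions of genotype with the presence of Y-linked reads came from the same kind of fit. Exact permutation tests of single values were two-sided. Of 182 list genes, 176 matched a symbol, 4 of them by an older name. All members are named, and of each other list up to 6 called genes or, with none, the 2 with the largest mean, except 1 gene that is not reported here. Positions, exon lengths and copies (blastn 2.17.0) are from GENCODE M21 (GRCm38), and promoter windows are from RefSeq (GRCm38.p6), which held 9 windows for 8 members. They differ from mm9 and were not used to read the files. The fits were tested on simulated counts.

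The settings also tried were a pseudocount of 0.1 or 10, a filter at a mean of 50 or none, other scalings (equal totals, upper quartile, quantile, TMM), the replicate number as a block, the Y-linked kind as a term, no trend, library weights, edgeR 4.0.16 and DESeq2 1.42.0 on the recovered reads (1158 and 1738 genes called), and each library left out. Depth was 1880464 to 7508215 reads, and intervals and the floor of 3 reads for a count of 0 cover counting error, with no molecular identifiers.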

Additional observations from a re-analysis of the deposited data

Results flagged for a closer look

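Of 30 groups of 4 libraries examined (the 10 members, the 4 partner ratios and the sum of the members in each genotype), 5 held a library far from the other 3, and chance flags about 1 in 20 groups. Clpp measured 0 in wild-type replicate 1, where the other wild-type libraries had 55.0 to 63.7, and 181 in mfn2-/- replicate 4, against 28.7 to 50.6. Trap1 measured 114 in wild-type replicate 1, against 252 to 254 in the others. The log2 ratio of Clpx to Clpp was 8.13 in wild-type replicate 1, a value set by the Clpp count of 0 and the pseudocount, and -0.74 in mfn2-/- replicate 4, against 1.84 to 2.24 in the other mfn2-/- libraries. These 5 values come from the shallowest library of each group.

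The genotype difference itself differed between libraries with and without Y-linked reads, by the interaction term of limma adjusted over all genes, for 1 member and 6 relatives. The log2 change was larger with Y-linked reads by 1.21 for Hspd1, by 1.19 for Dnaja1, by 2.10 for Dnaja4, by 1.33 for Hsp90aa1, by 1.23 for Hsp90ab1, by 0.74 for Hspa5 and by 1.09 for Hspa8. Each estimate rests on 2 libraries per genotype and kind, and Y-linked expression and the pair of replicate numbers cannot be told apart.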

How the results depend on the processing

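Of the members, Hspe1 was called in 19 of 24 alternatives (log2 change 0.91 to 1.37, limma or other adjusted p up to 0.123) and Hspa9 in 21 (0.71 to 0.96, adjusted p up to 0.139), both losing the call with upper-quartile scaling, without the trend and without wild-type replicate 3, and Hspe1 also without wild-type replicate 4 or mfn2-/- replicate 2. Hspd1 was called in 10 of 24, with adjusted p up to 0.288. The numbers called were 716 genes (153 higher) with upper-quartile scaling and 633 (113 higher) without the trend, with 0 members and 0 genes of the other lists in each, and 3037 (1398 higher, 1639 lower) with library weights, with 16 genes of the other lists. The other lists held 3 called genes with a pseudocount of 0.1 and also without the shallowest library of each group. Leaving out 1 library gave 670 to 1307 called genes, 235 to 470 higher and 435 to 837 lower, 0 to 3 members and 2 to 3 genes of the other lists. The lowest counts came without wild-type replicate 3 (670 genes, 0 members) and wild-type replicate 4 (749 genes, 1 member). Quantile normalization gave 110 called interactions against 173, and an Hspa9 interaction of -0.24. It moved the median change of all genes by 0.23, a mean of at least 50 moved it by 0.14, edgeR by 0.11 and leaving out mfn2-/- replicate 4 by 0.14.

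The sign turned for members that were not called. Spg7 was 0.0060 with quantile normalization. Library weights gave 0.064 for Lonp1, -0.14 for Clpp and -0.052 for Dnaja3, and Clpp was -0.65 without the shallowest library of each group. Over the fits that left out 1 library, Lonp1 ran from -0.453 to 0.030 (without mfn2-/- replicate 4), Clpp from -0.098 (without wild-type replicate 1) to 1.91, Dnaja3 from -0.086 (without wild-type replicate 2) to 0.27, Trap1 from -0.519 to 0.012 (without mfn2-/- replicate 1), Afg3l2 from -0.472 to 0.143 (without mfn2-/- replicate 4) and Spg7 from -0.480 to 0.059 (without the same library). The difference of the Clpx to Clpp ratio was 0.45 among libraries with Y-linked reads, and that of Spg7 to Afg3l2 was 0.20 among libraries without them and ran from -0.093 to 0.089 over the fits that left out 1 library, above 0 without wild-type replicates 1, 3 or 4 or mfn2-/- replicate 1. The cause of these changes was not tested.

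Libraries with the same replicate number did not deviate together (correlations of -0.03, -0.05, 0.04 and -0.11 over genes). Each such pair joins a library with Y-linked reads and a library without them, so these correlations cannot settle whether the numbers pair the libraries. With the replicate number as a block 1043 genes were called (434 higher, 609 lower), with 3 members, since the adjusted p of Hspd1 became 0.0217. Depth limits Clpp, Afg3l2 and Spg7 most, at 0 to 119, 29 to 368 and 26 to 313 reads per library.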
